A study of Mus musculus with 9 samples.

Results

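Cartilage matrix genes are described here as a group of 10, taken by name: *Col2a1*, *Col11a1*, *Col11a2*, *Col9a1*, *Col9a2*, *Col9a3*, *Acan*, *Comp*, *Matn1* and *Matn3*. The group was chosen with earlier results of these data known. Each gene was looked up by its NCBI gene ID in a table of 17943 genes, and all 10 were found. Of these, 9 had at least 10 counts summed over the 9 mice and were tested among 16426 genes. *Matn1* was not tested, with a single count in a single mouse.

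RNA-Seq libraries covered 2 groups of whole skin, from 5 controls and from 4 *Supt6*-KO mice, harvested on day 10 after the last injection. The study calls the *Supt6*-KO skin lesional and the control skin matched. The study describes the *Supt6*-KO mice as K14-CreERT; *Supt6* fl/fl given tamoxifen and the controls as *Supt6* fl/fl given corn oil. Both groups thus carried the floxed alleles while Cre and tamoxifen went together. The Keratin 14 promoter drives the Cre in basal keratinocytes of the epidermis and hair follicle, and cells that do not use this promoter keep *Supt6*, which encodes a histone chaperone that travels with RNA polymerase II. The labels instead call the controls wild-type and the tissue ear, where the methods name dorsal skin. The study places the injections in the first telogen, a resting phase of the hair cycle. Strain, sex and age in days of these mice, and whether any shared a litter, are not given in the sources used here, so the p-values measure the spread between these libraries. The libraries held 29627341 to 30967107 counts each.

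Cartilage gains its tensile strength from thin fibrils in which collagen II is copolymerised with collagen XI, while collagen IX sits on the fibril surface. Aggrecan, the proteoglycan encoded by *Acan*, fills the space between fibrils with chondroitin sulfate chains that hold water. COMP and the matrilins are glycoproteins that bridge fibrils to other matrix molecules. In mice the external ear is stiffened by a plate of elastic cartilage, whereas the skin of the back holds none.

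The members lie on different chromosomes, apart from *Col9a2* and *Matn1*, which are both on chromosome 4. In GRCm38 (mm10), RefSeq places *Col2a1* at chr15:97975602-98004724, *Col11a1* at chr3:114030479-114220756, *Col11a2* at chr17:34038919-34066684 and *Col9a1* at chr1:24177589-24252738. *Col9a2* is at chr4:121039566-121055325, *Col9a3* at chr2:180598102-180622192 and *Acan* at chr7:79053226-79115099. *Comp* is at chr8:70373548-70382066, *Matn1* at chr4:130944385-130955476 and *Matn3* at chr12:8947929-8972028.

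RefSeq promoter windows (GRCm38.p6) were matched for 7 of the 10 members, with 8 start sites among them. The stretches of 150 bases upstream of the start are shown for *Acan*, the member with the highest mean CPM (library-scaled counts) in the controls, for *Col9a2* and *Matn3*, a collagen and a glycoprotein gene with large changes below, and for *Matn1*, the member that was not detected. All are on the forward strand, written 5′ to 3′, and capitals mark GC boxes (GGGCGG, or CCGCCC read from the other strand) and CCAAT boxes (CCAAT, or ATTGG from the other strand).
Acan, chr7:79053076-79053225: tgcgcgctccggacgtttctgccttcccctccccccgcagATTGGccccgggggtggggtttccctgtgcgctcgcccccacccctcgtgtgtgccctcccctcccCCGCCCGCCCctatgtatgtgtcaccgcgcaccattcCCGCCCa
Col9a2, chr4:121039416-121039565: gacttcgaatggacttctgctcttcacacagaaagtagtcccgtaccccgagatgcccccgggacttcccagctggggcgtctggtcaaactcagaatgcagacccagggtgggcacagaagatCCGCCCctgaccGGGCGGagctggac
Matn3, chr12:8947779-8947928: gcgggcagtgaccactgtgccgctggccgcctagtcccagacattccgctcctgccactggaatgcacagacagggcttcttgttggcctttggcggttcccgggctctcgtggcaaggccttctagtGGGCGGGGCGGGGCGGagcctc
Matn1, chr4:130944235-130944384: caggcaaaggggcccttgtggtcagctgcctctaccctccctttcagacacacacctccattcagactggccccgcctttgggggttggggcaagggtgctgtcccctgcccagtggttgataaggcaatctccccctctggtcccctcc

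In the 250 bases upstream of each start, searched on both strands, a GC box was found in 6 of the 8 member windows, against 32.7% of the 32851 windows in the RefSeq table. A CCAAT box was found in 4 of the 8, against 33.8% of all windows. A TATA box (TATAAA) was found in 1 of the 8, that of *Col11a2*, against 12.4%. The core recognised by SOX proteins, searched as CAAAG or CAATG after a pair of bases that are each A or T, was found in 2 of the 8, for *Col9a1* and, farther upstream than the stretch shown, for *Col9a2*, against 21.8%. In *Acan* a pair of the GC boxes overlap, and in *Matn3* all of them do. For *Col11a1*, *Col11a2* and *Col9a1* the start used lies inside the gene interval given above, so part of the window searched may be transcribed. The stretch shown for *Matn1* holds none of these motifs, and its single GC box lies farther upstream. These matches describe letters only, and the 8 windows are too few to be set against the table by a test.

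*Supt6* itself (NCBI gene 20926) had 74.5, 56.6, 63.6, 91.1 and 96.7 CPM (counts relative to the library total after scaling by the TMM method of edgeR) in the 5 controls and 28.6, 24.1, 21.9 and 28.4 CPM in the 4 *Supt6*-KO mice. The groups did not overlap, and the log2 fold change was -1.57 (SE 0.18, adjusted p = 1.3e-05). Corrected for a trend with transcript length, it was -0.76 (adjusted p = 0.00016).

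All 9 tested cartilage matrix genes fell in *Supt6*-KO skin and none rose (edgeR quasi-likelihood test, Benjamini-Hochberg adjusted p under 0.05 over all genes). Of all genes tested, 36.8% were called lower (6050 genes) and 34.1% higher (5608), a split that library totals alone turned to 8970 lower and 2771 higher; the same 9 members were lower and none higher on that scale. For each of the 9, the highest *Supt6*-KO mouse lay under the lowest control, which held for 31.8% of all genes tested; the opposite held for none of the 9 and for 28.9% of all genes. Their log2 fold changes ran from -3.86 to -1.75 with a median of -3.43, beside a median of -0.07 over all genes. Because these are whole tissue libraries, each level is a share of the RNA of all cells. Fewer cartilage cells, less RNA per cartilage cell and more RNA from other cells cannot be told apart.

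Summed over the 10 members, the controls had 564.5, 434.3, 456.7, 679.1 and 1078 CPM and the *Supt6*-KO mice had 72.0, 96.3, 87.2 and 74.6 CPM. The means were 642.5 ± 262.2 CPM (SD, n = 5) and 82.5 ± 11.4 CPM (SD, n = 4), so that the *Supt6*-KO mice held 12.8% of the control level. Control 5 was the highest of all mice, and without it the *Supt6*-KO level was 15.5% of control. Leaving out *Acan* gave 14.2%, and scaling by library totals alone gave 7.76%.

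**Figure D1:**
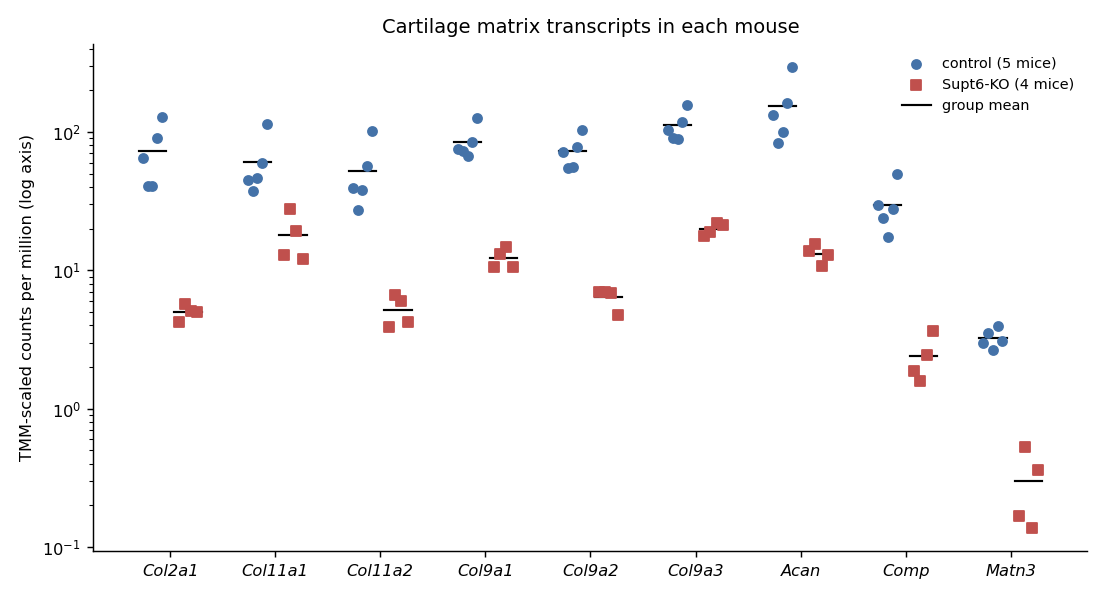
Each point is 1 mouse, with TMM-scaled CPM on a log axis for the 9 tested cartilage matrix genes; circles are the 5 controls, squares the 4 *Supt6*-KO mice and bars the group means. No *Supt6*-KO point reaches the lowest control point of its gene, and the gap is narrowest for *Col11a1*, whose lowest control was 1.35 times the highest *Supt6*-KO mouse. *Matn1*, with 1 count in all, is not drawn.

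Among the fibrillar collagens, *Col2a1*, which encodes the single chain of collagen II, had a log2 fold change of -3.86 (SE 0.37, adjusted p = 4.1e-06). It was at 64.7, 40.4, 40.8, 89.6 and 129 CPM in the controls and at 4.22, 5.71, 5.08 and 5.03 CPM in the *Supt6*-KO mice. The controls spread over 3.20 times and the *Supt6*-KO mice over 1.35 times, and the lowest control was 7.07 times the highest *Supt6*-KO mouse. Group means were 72.9 ± 37.4 CPM (SD, n = 5) and 5.01 ± 0.61 CPM (SD, n = 4).

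*Col11a2*, one of the collagen XI chains, was at 39.1, 27.2, 37.8, 56.4 and 101.7 CPM in the controls and at 3.89, 6.57, 5.99 and 4.20 CPM in the *Supt6*-KO mice. The groups were far apart, and the log2 fold change was -3.35 (SE 0.39, adjusted p = 1.6e-05).

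*Col11a1*, which encodes another chain of collagen XI, had the smallest change. Its controls were at 45.2, 37.5, 46.2, 59.7 and 113.9 CPM and its *Supt6*-KO mice at 12.95, 27.7, 19.3 and 11.96 CPM. Here the *Supt6*-KO mice also differed among themselves, by 2.32 times between the highest, mouse 2, and the lowest, mouse 4. The log2 fold change was -1.75 (SE 0.36, adjusted p = 0.00098), or 29.7% of the control mean, whereas the other 8 tested members were at 6.87% to 17.9%. Of the 9 this was the only call that an alternative removed: with a length correction it was -0.74 (adjusted p = 0.044), and with that correction and a replicate block together it was -0.58 (adjusted p = 0.076).

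The genes of collagen IX, a heterotrimer of one chain from each of *Col9a1*, *Col9a2* and *Col9a3*, varied less among the controls than the fibrillar collagen genes, by 1.75 to 1.90 times between the lowest and the highest mouse. *Col9a1* was at 74.7, 72.6, 66.5, 84.9 and 126.4 CPM in the controls and at 10.5, 13, 14.7 and 10.5 CPM in the *Supt6*-KO mice. Its log2 fold change was -2.80 (SE 0.21, adjusted p = 1.1e-06).

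*Col9a2* was at 71.7, 54.8, 55.4, 77.3 and 103.2 CPM in the controls and at 6.98, 6.91, 6.82 and 4.71 CPM in the *Supt6*-KO mice. *Supt6*-KO mouse 4 lay below the other 3, which were close together. The log2 fold change was -3.51 (SE 0.23, adjusted p = 4.4e-07).

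*Col9a3* was at 103.8, 90.9, 89.5, 117.6 and 157.1 CPM in the controls and at 17.6, 18.8, 22.1 and 21.4 CPM in the *Supt6*-KO mice. The controls spread over 1.75 times, the groups did not overlap, and it fell by 2.48 on the log2 scale (SE 0.18, adjusted p = 9.9e-07).

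*Acan* was in the controls at 132.4, 83.5, 100.3, 161.8 and 294.4 CPM. In the *Supt6*-KO mice it was at 13.8, 15.5, 10.7 and 12.8 CPM. Control 5 stood at 3.53 times the lowest control, yet the lowest control was still 5.38 times the highest *Supt6*-KO mouse. The log2 fold change was -3.55 (SE 0.36, adjusted p = 6.4e-06).

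Of the bridging glycoproteins, *Comp* was at 29.8, 24.0, 17.4, 27.9 and 49.4 CPM in the controls and at 1.88, 1.58, 2.42 and 3.63 CPM in the *Supt6*-KO mice. The log2 fold change was -3.63 (SE 0.35, adjusted p = 4.2e-06). *Comp* is also a product of tendon and of some fibroblasts, so its level is not specific to cartilage.

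*Matn3*, which encodes matrilin-3, was the lowest of the tested members and the steadiest among the controls, with 112, 128, 96, 145 and 120 counts. The *Supt6*-KO mice had 4, 11, 3 and 10 counts. After scaling, the means were 3.23 ± 0.49 CPM (SD, n = 5) and 0.30 ± 0.18 CPM (SD, n = 4), with a log2 fold change of -3.43 (SE 0.34, adjusted p = 5.9e-06). With counts as low as 3 in a library, the differences among the *Supt6*-KO mice are within reach of counting error.

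*Matn1*, known from tracheal and growth plate cartilage, had 1 count in control 3 and 0 in every other mouse. Over the 5 controls, a floor of 3 counts corresponds to 0.0161 CPM, so a level under that was not detectable at this depth. No fold change is given for it.

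Levels can be compared between genes only per length, for which TPM (transcript abundance per length) were rebuilt from the counts for all 9 mice. On that scale *Col9a3* was the most abundant member in the controls, at 71.8 ± 27.3 TPM (SD, n = 5), ahead of *Col9a2* at 48.6 ± 19.6 and *Col9a1* at 47.6 ± 19.9 TPM. *Acan* followed at 35.2 ± 23.8, *Col2a1* at 26.2 ± 16.6, *Comp* at 23.2 ± 12.4, *Col11a2* at 14.4 ± 10.1, *Col11a1* at 13.6 ± 8.82 and *Matn3* at 1.90 ± 0.38 TPM. *Col9a3* was above *Col9a2* in each of the 9 mice. From *Col9a2* down to *Col11a1*, neighbours in this order differed by less than 1 SD between mice, and the step from *Col11a1* to *Matn3* was larger. In the *Supt6*-KO mice *Col9a3* was at 4.64 ± 1.57 TPM (SD, n = 4), *Col9a1* at 2.38 ± 0.42, *Col9a2* at 1.48 ± 0.19 and *Col11a1* at 1.32 ± 0.28 TPM, with the others lower. TPM carry no TMM scaling, so falls between the groups read from them are larger than those in CPM above.

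The changes were unequal among the genes of one trimer. As a share of the summed TPM of the collagen IX genes, *Col9a2* went from 28.8 ± 1.40% (SD, n = 5) in the controls to 17.8 ± 3.24% (SD, n = 4) in the *Supt6*-KO mice. *Col9a3* went from 42.9 ± 0.65% to 53.8 ± 4.45%, while *Col9a1* was at 28.3 ± 1.39% and 28.4 ± 2.39%. The control shares were narrow, 41.9% to 43.7% for *Col9a3* in spite of the spread in its level.

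Collagen XI takes its remaining chain from *Col2a1*, so *Col2a1*, *Col11a1* and *Col11a2* were set against each other in the same way. *Col2a1* made up 48.2 ± 4.75% in the controls and 25.8 ± 5.08% in the *Supt6*-KO mice. *Col11a1* went from 25.5 ± 3.09% to 54.4 ± 5.89%, and *Col11a2* went from 26.3 ± 2.22% to 19.7 ± 1.39%. Most collagen II message serves collagen II itself, so these are shares of message and not of protein chains.

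Each share differed between the groups without overlap, except that of *Col9a1*, which differed by 0.103 percentage points. The shares restate the fold changes given above, those of one collagen sum to the whole, and the comparison was chosen after the fold changes had been seen, so they are a description with no test. They do not depend on the scaling between mice but rest on one effective length per gene in all mice.

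**Figure D2:**
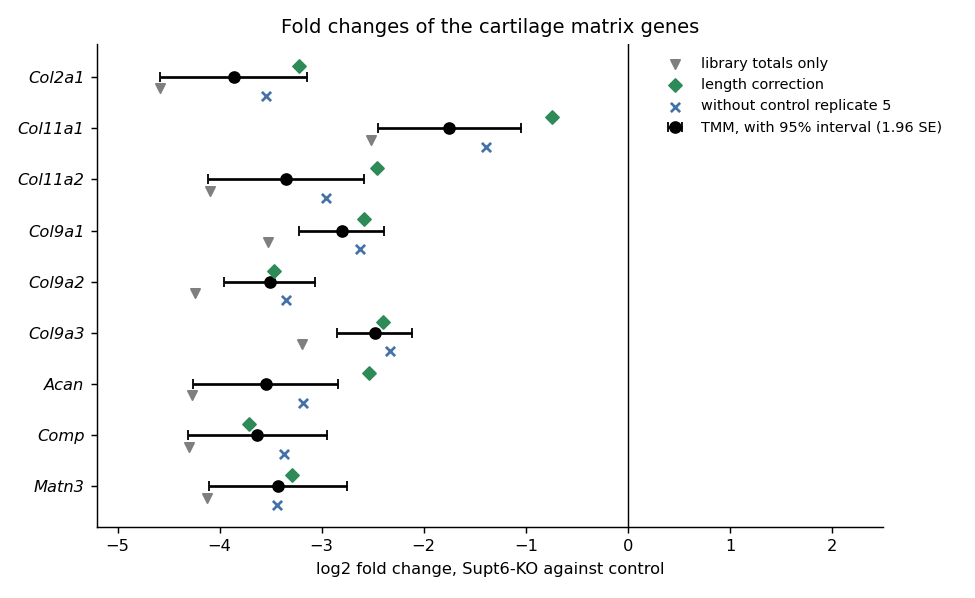
Log2 fold changes of the 9 tested members, with black points and 95% intervals from the quasi-likelihood fit with TMM scaling. Triangles show library totals alone, diamonds a length correction and crosses the fit without control 5; every symbol lies below 0, and the length correction moves *Col11a1*, *Acan* and *Col11a2* most.

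The long members moved most with the length correction, and the table as a whole showed a trend with length. Over all genes with an effective length, split by length into 10 bins of equal size, bin 1 with the shortest genes had a median of 1.29 on the log2 scale with 12.3% called lower, and bin 10 with the longest had -1.05 with 70.0% called lower. *Acan*, *Col11a1* and *Col11a2* fall in bin 10 and *Col2a1* in bin 9, with a median of -0.73. *Col9a1*, *Col9a3* and *Matn3* lie in bin 6 (median -0.19), and *Col9a2* and *Comp* in bin 5 (median 0.04).

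With the trend removed within each mouse, *Acan* was at -2.54, *Col11a2* at -2.46 and *Col2a1* at -3.22, while *Col9a2* at -3.47, *Comp* at -3.71, *Col9a3* at -2.40, *Col9a1* at -2.59 and *Matn3* at -3.29 stayed near their first values. All 9 kept an adjusted p under 0.05 under this correction, and their median was -2.59. RNA quality was not measured in these files, and its part in the trend was not tested.

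**Figure D3:**
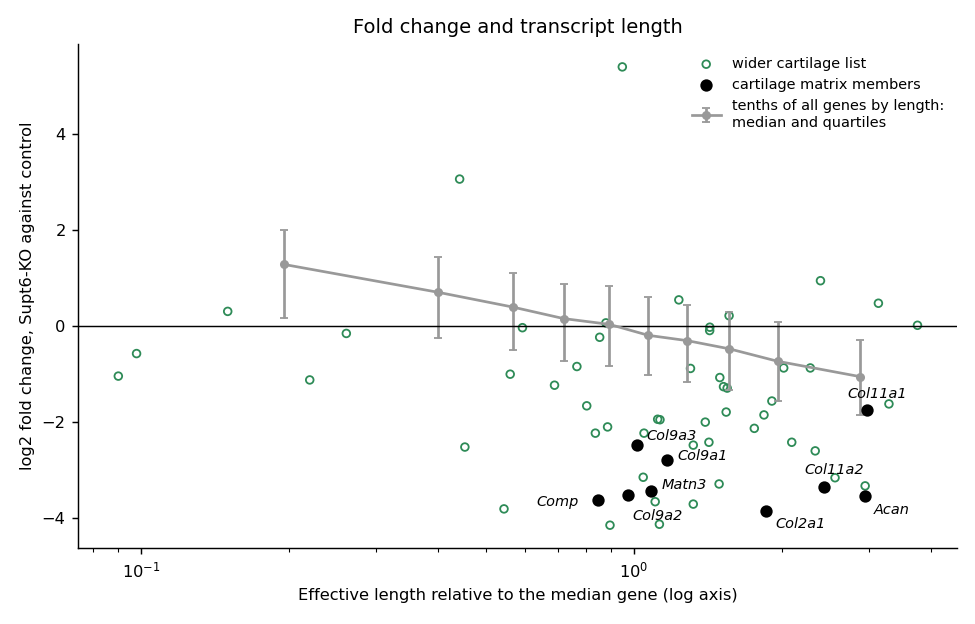
Log2 fold change against effective length relative to the median gene, on a log axis. The grey line joins the medians of 10 equal groups of genes by length, with quartiles, from 1.29 in the shortest to -1.05 in the longest; black points are the cartilage matrix genes, all below the lower quartile of their length group except *Col11a1* at -1.75, and green circles the wider cartilage list.

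Among the controls, the tested members other than *Matn3* also rose and fell together. Of the 36 pairs of tested members, the correlation of their deviations from the group means over the 9 mice had a median of 0.79, with a range of -0.12 to 0.95, and 25 pairs were above 0.5. No share over pairs of other genes is given, so these values have no background beside them. *Col2a1* followed the mean of the others most closely (r = 0.97), and *Col11a2* (0.93) and *Acan* (0.91) were next. *Comp* was at 0.52 and *Matn3* at 0.11. Over the 5 controls alone, *Col9a3* (1.0), *Col9a2* (0.99) and *Acan* (0.99) were above *Col2a1* (0.97), with *Comp* at 0.89 and *Matn3* again at 0.11. The *Supt6*-KO mice did not all follow this: in mouse 4, *Comp* was the highest of its group (3.63 CPM) and *Col11a1* the lowest (11.96 CPM). No correlation over the *Supt6*-KO mice alone, or without control 5, is given here. The values of a mouse share its library and scaling, so this likeness is given as a description.

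Control 5 had the highest summed cartilage matrix level, at 2.11 times the median of the other 4 controls. The same mouse was at 2.34 times for a list of 12 dermal fibroblast genes (highest in CPM, *Col3a1*), at 1.99 times for 11 elastic fiber genes (*Eln*), at 2.36 times for 4 tendon genes (*Thbs4*) and at 1.63 times for 4 endothelial genes (*Pecam1*). For 12 skeletal muscle genes (*Acta1*) it was at 0.88 times, for 7 adipocyte genes (*Fabp4*) at 0.69 times and for 4 hair follicle genes (*Krt15*) at 1.06 times. Without control 5, all 9 members remained lower at an adjusted p under 0.05, with a median log2 fold change of -3.18 in place of -3.43.

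**Figure D4:**
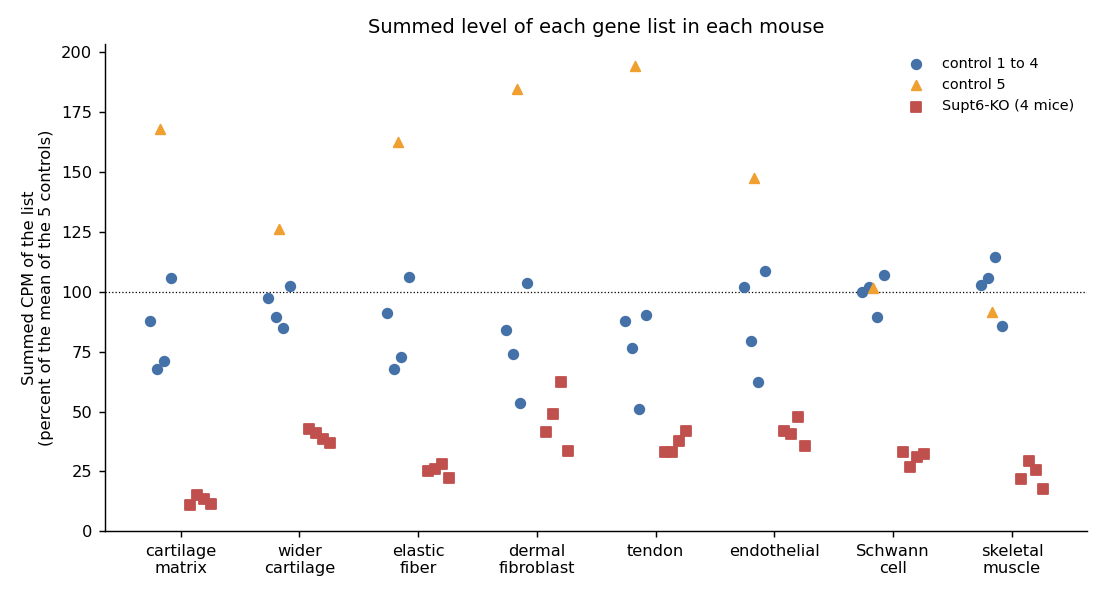
Summed CPM of 8 gene lists in each mouse, as a percent of the mean of the 5 controls (dotted line at 100%). Circles are controls 1 to 4, triangles control 5 and squares the 4 *Supt6*-KO mice; the *Supt6*-KO mice lie at 12.8% of control for the cartilage matrix genes and at 46.6% for the dermal fibroblast genes, and control 5 stands high in most lists but not in the Schwann cell and muscle lists.

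Outside the group, the genes whose deviations were most like the mean of the tested members over the 9 mice were *Cilp2* (r = 0.986), *Pcsk5* (0.982), *Gpc6* (0.973), *Nid2* (0.964), *Fndc3b* (0.964), *Dock2* (0.963), *Glis3* (0.962), *Nynrin* (0.962), *Fzd1* (0.962) and *Enpp2* (0.960), of 13555 genes with a mean of at least 1 CPM. *Cilp2*, a protein of cartilage intermediate layers, was at 25.8 CPM in the controls and 2.64 CPM in the *Supt6*-KO mice, with a log2 fold change of -3.29 (SE 0.32, adjusted p = 5e-06). *Gpc6*, a cell surface proteoglycan, had a log2 fold change of -3.14 (SE 0.27, adjusted p = 2.4e-06), while *Fzd1*, a Wnt receptor, had -0.73 (SE 0.13, adjusted p = 0.00051), a call that the length correction removed (-0.23, adjusted p = 0.087). These 10 genes thus include both large and small differences between the groups.

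A wider list of 53 cartilage genes, also chosen with earlier results of these data known, was all in the table, and 52 were tested. Of these, 37 were lower, 3 higher and 12 did not pass, with a median log2 fold change of -1.42, against 36.8% lower and 34.1% higher over all genes tested. Among the transcription factors, 5 of 6 were lower. *Sox9*, the factor that directs cells to the cartilage lineage and is also present in hair follicles, was at 45.0 ± 11.1 CPM (SD, n = 5) and 13.02 ± 1.36 CPM (SD, n = 4) in the groups, with a log2 fold change of -1.79 (SE 0.18, adjusted p = 6.5e-06). Its partner *Sox5* fell by 3.16 on the log2 scale (SE 0.28, adjusted p = 2.4e-06), and *Runx3* by 2.00 (SE 0.24, adjusted p = 2.3e-05).

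Of 19 other matrix and secreted proteins, 15 were lower and none higher, beside 36.8% lower and 34.1% higher over all genes tested. *Chadl*, a leucine-rich repeat protein of cartilage, had a log2 fold change of -4.15 (SE 0.26, adjusted p = 3.3e-07), and *Fmod*, or fibromodulin, which binds collagen fibrils in cartilage and tendon, had -4.13 (SE 0.26, adjusted p = 3.3e-07). *Cytl1*, a small secreted protein of chondrocytes and the gene of the list with the highest mean CPM, was at 451.5 ± 23.1 CPM in the controls and 405.7 ± 90.4 CPM in the *Supt6*-KO mice, and did not pass (log2 fold change -0.15, SE 0.16, adjusted p = 0.40). It is a short transcript, and it passed with the length correction (-1.12, adjusted p = 9.3e-05) and with library totals (-0.87, adjusted p = 0.00028). *Hapln1*, the link protein that ties aggrecan to hyaluronan, fell by 1.56 (SE 0.14), and *Cnmd*, or chondromodulin, by 2.52 (SE 0.15); both were picked after their values were seen.

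Of the hypertrophic cartilage genes, *Col10a1*, the collagen of that zone, fell by 1.95 on the log2 scale (SE 0.17, adjusted p = 2.8e-06) and *Alpl*, alkaline phosphatase, by 2.10 (SE 0.34, adjusted p = 0.0002). *Spp1*, osteopontin, which macrophages also make, rose from 5.40 ± 1.02 CPM to 45.3 ± 23.7 CPM (log2 fold change 3.07, SE 0.29, adjusted p = 4.3e-06).

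Among the 10 genes for chondroitin sulfate synthesis and sulfate supply, 6 were lower and 4 did not pass. Over all genes tested, 36.8% were lower and 34.1% higher. *Xylt1*, which starts the sugar chains on aggrecan and other core proteins, fell by 3.66 on the log2 scale (SE 0.46, adjusted p = 2.7e-05), and the sulfotransferase gene *Chst3* by 2.60 (SE 0.22, adjusted p = 2e-06). *Ugdh*, which supplies the sugar precursor in many cell types, was at 53.9 ± 3.74 CPM and 45.9 ± 6.63 CPM and did not pass (log2 fold change -0.23, SE 0.12, adjusted p = 0.099), though it did with library totals (-0.91, adjusted p = 0.00077), upper-quartile factors (-0.32, adjusted p = 0.025), a filter of 10 counts in every mouse (-0.28, adjusted p = 0.047) and the length correction (-0.30, adjusted p = 0.028), and without *Supt6*-KO mouse 4 (-0.31, adjusted p = 0.024).

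Of the 7 matrix-degrading enzymes and their inhibitor, 3 were lower and 2 higher, close to the 36.8% and 34.1% of all genes. *Mmp13*, a collagenase that cleaves collagen II, was at 0.36 ± 0.33 CPM in the controls and 15.5 ± 3.62 CPM in *Supt6*-KO skin (log2 fold change 5.41, SE 0.47, adjusted p = 2.3e-06). *Timp3*, an inhibitor of aggrecan-cleaving enzymes, fell by 2.13 (SE 0.21, adjusted p = 5.7e-06), and *Adamts1* by 1.85 (SE 0.20, adjusted p = 1.1e-05). The other gene that rose was *Adamts5*, an aggrecanase, by 0.48 (SE 0.17, adjusted p = 0.024), with overlapping groups; it was named after its value was seen. This call of *Adamts5* was lost with upper-quartile factors (0.40, adjusted p = 0.064) and without control 2, control 3, control 4, *Supt6*-KO mouse 2 or *Supt6*-KO mouse 3 (adjusted p up to 0.083), and the value turned to -0.23 with library totals (adjusted p = 0.31) and was 1.48 with the length correction (adjusted p = 3.8e-06). All 6 genes of growth factor signaling were lower, led by *Frzb*, a secreted Wnt antagonist of cartilage (log2 fold change -3.15, SE 0.15, adjusted p = 8.4e-08), and *Npr2*, a natriuretic peptide receptor (-2.42, SE 0.21, adjusted p = 2.3e-06). *Fgfr3*, which is also made by keratinocytes, fell by 1.26 (SE 0.12, adjusted p = 4.7e-06).

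**Figure D5:**
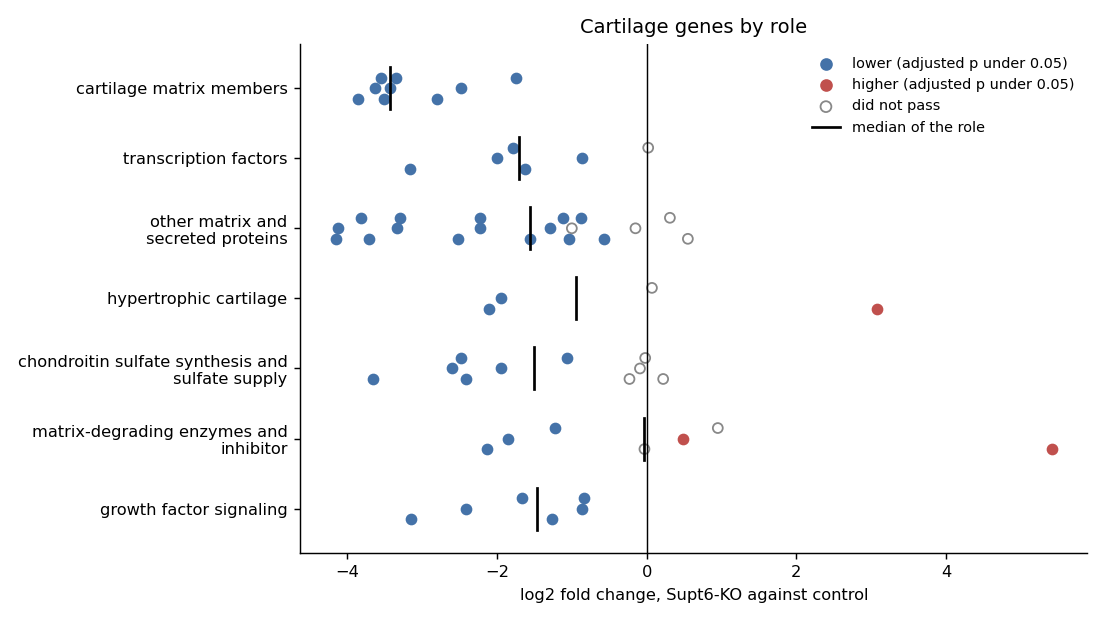
Log2 fold changes of the tested cartilage matrix genes and of the wider cartilage list by role, 1 point per gene, with a black line at each median. The members have a median of -3.43, the transcription factors -1.70, the other matrix and secreted proteins -1.56 and the degrading enzymes -0.03; *Mmp13* at 5.41 and *Spp1* at 3.07 stand farthest to the right.

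Markers of other cell types in skin and ear moved too, and the counts that follow stand beside 36.8% lower and 34.1% higher over all genes tested. Dermal fibroblast genes were lower in 9 of 12 cases, with *Col1a1* at -3.64 (SE 0.50, adjusted p = 5.4e-05) and *Col6a2* at -3.07 (SE 0.38, adjusted p = 2.4e-05), while the most abundant, *Col3a1*, was at 2112 ± 941 CPM and 1710 ± 604 CPM and did not pass (log2 fold change -0.31, adjusted p = 0.43). With library totals *Col3a1* did pass (-1.06, adjusted p = 0.011), and with the length correction it was at 0.46 (adjusted p = 0.2). Elastic fiber genes were lower in 8 of 11, led by *Ltbp4* at -3.92 and *Eln*, elastin, at -3.81. Skeletal muscle genes were lower in 11 of 12, with *Myh4* at -4.38, *Actn3* at -4.33 and *Acta1* at -2.66.

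Fewer genes were on the remaining lists. The adipocyte list had 5 of 7 lower (*Lep* -3.04, *Plin1* -2.88), and *Fabp4*, with the highest mean CPM, did not pass at 0.46. The direction of *Fabp4* depended on the setting, with calls at -0.79 with the length correction (adjusted p = 0.0013), at 0.53 with DESeq2 (adjusted p = 0.033) and at 0.56 without control 2 (adjusted p = 0.043), and -0.23 with library totals. The tendon list had 3 of 4 lower (*Thbs4* -1.88, *Tnmd* -1.22). All 3 genes were lower on the Schwann cell list (*Sox10* -2.50, *Mbp* -1.91), as were all 4 on the hair follicle list (*Krt15* -2.65, *Lhx2* -1.77) and on the endothelial list (*Cdh5* -2.11, *Vwf* -1.26, *Pecam1* -1.08), although *Vwf* was at -0.14 with the length correction (adjusted p = 0.67). Keratinocyte genes were divided, with *Trp63* (-1.21) and *Krt5* (-0.86) lower, *Krt1* (3.65) higher and the remainder, with *Krt10* at 0.19, not passing. *Krt10* passed in opposite directions, at -0.55 with library totals (adjusted p = 0.036) and at 0.42 without *Supt6*-KO mouse 4 (adjusted p = 0.049). Of the immune genes 4 of 5 were higher, *S100a8* by 7.87 and *S100a9* by 7.78, while *Ptprc* did not pass at 0.24 (adjusted p = 0.21). Their summed level went from 137 ± 21.9 CPM to 5307 ± 1826 CPM, or 3875% of control. It was 2314% by library totals and 2080% without *S100a9*. In the *Supt6*-KO mice most of the sum was *S100a8* (1919 CPM) and *S100a9* (2715 CPM). The other genes of the list changed far less, with *Lyz2* at 689.9% of control, *Itgam* at 208.7% and *Ptprc* at 118.2%. The sum is therefore not a measure of immune cell number.

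The summed level in *Supt6*-KO skin was 12.8% of control for the cartilage matrix genes, 39.8% for the wider cartilage list, 25.4% for elastic fiber, 46.6% for dermal fibroblast, 23.6% for skeletal muscle, 30.7% for Schwann cell, 41.3% for endothelial, 36.3% for tendon, 87.8% for adipocyte and 16.3% for hair follicle genes. By library totals these sums were lower, at 7.76% for the cartilage matrix genes, 24.4% for the wider cartilage list, 15.4% for elastic fiber, 27.8% for dermal fibroblast, 14.3% for skeletal muscle, 19.1% for Schwann cell, 25.1% for endothelial, 22.3% for tendon, 54.1% for adipocyte and 9.81% for hair follicle genes. Several sums rest mostly on 1 gene. With the most abundant gene of each list left out, an alternative added after seeing the data, they were 14.2% for the cartilage matrix genes, 30.3% for the wider cartilage list, 51.6% for elastic fiber (without *Eln*), 30.7% for dermal fibroblast (without *Col3a1*), 25.95% for skeletal muscle, 63.3% for Schwann cell (without *Mbp*), 33.8% for endothelial, 52.5% for tendon (without *Thbs4*), 41.2% for adipocyte (without *Fabp4*) and 49.98% for hair follicle genes (without *Krt15*). The list medians of the log2 fold change were -1.66 for hair follicle and -2.42 for skeletal muscle, against -3.43 for the cartilage matrix genes. The dermal fibroblast sum ran from 3584 to 12310 CPM in the controls and from 2247 to 4148 CPM in the *Supt6*-KO mice, which overlap, whereas the muscle sum (5314 to 7103 against 1100 to 1823 CPM) and the elastic fiber sum (963.5 to 2311 against 315.2 to 398.6 CPM) did not overlap. By library totals the dermal fibroblast sums did not overlap either (4369 to 16187 against 2044 to 2929). No gene of these lists that is in the table was at 0 in every mouse. The part that these other cell types have in the cartilage matrix levels was not tested. Bone markers were close to absent, with at most 15 counts of any of 6 genes in any mouse, among them *Sost* (-2.19, adjusted p = 0.013), *Ibsp* (-1.61, adjusted p = 0.034) and *Phex* (0.73, adjusted p = 0.20). With a replicate block neither passed, at -1.95 for *Sost* (adjusted p = 0.07) and -1.61 for *Ibsp* (adjusted p = 0.091), nor with block and length correction together (-2.11, adjusted p = 0.054, and -1.84, adjusted p = 0.064). The call of *Ibsp* was also lost with DESeq2 (-1.59, adjusted p = 0.052) and without control 1, control 4, *Supt6*-KO mouse 1 or *Supt6*-KO mouse 2 (adjusted p up to 0.076 when a mouse was left out).

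Position markers were looked up because the labels and the methods name different tissue. Of 18 Hox genes known from trunk skin, 12 were in the table, and 9 of these had at most 12 counts in any mouse. The remaining 3 were *Hoxd8* (110 to 433 counts), *Hoxd9* (33 to 205) and *Hoxd10* (22 to 63). *Hoxd8* had a log2 fold change of -1.02 (SE 0.14, adjusted p = 6.2e-05) and *Hoxd9* of -1.39 (SE 0.20, adjusted p = 7.5e-05). *Hoxd10* did not pass at 0.13 (adjusted p = 0.67). *Hoxa2*, known from the developing external ear, had 53 to 179 counts, with a log2 fold change of -0.52 (SE 0.18, adjusted p = 0.025), a call lost with a replicate block (-0.43, adjusted p = 0.094) and without control 1, control 2 or *Supt6*-KO mouse 1 (adjusted p up to 0.057). In the controls, where no tissue was deleted for *Supt6*, the cartilage matrix genes summed to at least 434.3 CPM. Control means were 10.6 CPM for *Hoxd8*, 4.39 CPM for *Hoxd9* and 3.77 CPM for *Hoxa2*. No reference library of ear or dorsal skin was analysed here, so which of the names holds for these libraries was not tested.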

How the data were processed

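Whole skin RNA from 5 control and 4 *Supt6*-KO mice was sequenced. According to the submitters' processing notes and the study's methods, the authors aligned reads to mm10 with Bowtie2 2.3.4.3 and obtained gene-level estimated counts with RSEM 1.3.1, which they deposited without normalization between mice. The notes also name HISAT and DESeq2 1.4.5. The annotation release is not given in the sources used here. The authors also deposited TPM values for the 5 controls and *Supt6*-KO mouse 4. About 9% of the estimated counts are not whole, and all were rounded.

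A gene was tested when its counts over the 9 mice summed to at least 10. Counts were scaled by TMM and compared with edgeR 4.0.16 (R 4.3.3) by its quasi-likelihood test without covariates, with Benjamini-Hochberg adjustment over 16426 genes. The TMM factors were 1.198 to 1.315 in the controls and 0.674 to 0.910 in the *Supt6*-KO mice. With library totals alone, the median over all genes moved from -0.07 to -0.76 on the log2 scale, so changes are read against that median. SE is the size of the log2 fold change over the square root of F, and intervals are 1.96 SE.

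Effective length was taken per gene as the ratio of deposited counts to deposited TPM, for 16216 genes, and TPM were rebuilt with it for all 9 mice (median difference from the deposited TPM at most 0.042 on the log2 scale). The length correction removed a lowess trend (span 0.3) of log2 counts on length within each mouse. Deviations used log2 CPM with a prior count of 2. Depth was 29627341 to 30967107 counts per mouse, and a floor of 3 counts covers counting error only.

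The members and the gene lists were chosen with earlier results of these data known, and 1 gene of the lists is not reported here. Genes named are the members, *Supt6*, *Hoxa2*, the 10 most alike genes, and in each list or role the gene with the highest mean CPM, up to 2 with the largest falls and 1 with the largest rise. *Hapln1*, *Cnmd*, *Adamts5*, *Ptprc*, *Lyz2*, *Itgam*, *Hoxd10* and the count of 9 low Hox genes were chosen after their values were seen. Groups and replicate numbers come from the sample titles. Alternatives were library totals, upper-quartile factors, DESeq2 1.42.0, filters, the 50 most abundant genes left out, a replicate block, the length correction, both together and each mouse left out. Promoters came from RefSeq (GRCm38.p6).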

Additional observations from a re-analysis of the deposited data

Results flagged for a closer look

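Within each group, the highest or lowest mouse stood apart from the others by Dixon's criterion in 17 of 183 sets of values examined. If the sets were independent, about 9.2 would be marked by chance. They share mice and some genes, so the difference from 9.2 was not tested. Among the cartilage matrix genes the marks were *Col9a2*, at 4.71 CPM in *Supt6*-KO mouse 4 beside a group median of 6.86, and *Matn1*, whose single count in control 3 gives 0.0277 CPM. A gene with a single count in its group always meets this criterion, so the mark of *Matn1* carries no information. *Mmp13* was high in control 2 (0.93 CPM, median 0.27) and in *Supt6*-KO mouse 2 (20.9 CPM, median 13.8).

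Control 5 was high for *Timp3* (594.7 CPM, median 386.9), *Thbs4* (104.4 CPM, median 40.4), *Sox10* (5.96 CPM, median 3.40), *Pcsk5* (12.96 CPM, median 5.05), *Dock2* (6.65 CPM, median 3.98), *Nynrin* (17.5 CPM, median 8.48) and the summed tendon list (142.5 CPM, median 64.3). *Supt6*-KO mouse 4 was low for *Krt10* (7775 CPM, median 18892), *Cdh5* (2.55 CPM, median 3.60), *Sost* (0 CPM, median 0.0438) and the summed trunk Hox list (7.79 CPM, median 8.90). *Supt6*-KO mouse 2 was high for *Hoxd8* (5.71 CPM, median 5.06), and *Supt6*-KO mouse 3 was high for the summed adipocyte list (469.7 CPM, median 348.6). Such marks may come from 1 library, and their source was not tested.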

How the results depend on the processing

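The 9 tested members had lower levels in every alternative, and all passed except *Col11a1* with the replicate block and length correction together (log2 fold change -0.58, adjusted p = 0.076 from edgeR), and *Matn3*, which a filter of 10 counts in every mouse left untested. With each mouse left out, all 9 passed each time, and their log2 fold changes ran from -4.02 to -3.55 for *Col2a1*, -2.06 to -1.39 for *Col11a1*, -3.51 to -2.96 for *Col11a2*, -2.91 to -2.62 for *Col9a1*, -3.60 to -3.35 for *Col9a2*, -2.55 to -2.33 for *Col9a3*, -3.71 to -3.18 for *Acan*, -3.92 to -3.37 for *Comp* and -3.82 to -3.20 for *Matn3*. Their summed level in *Supt6*-KO skin was 12.8% of control, 7.76% by library totals, and 11.9% to 15.5% with a mouse left out, the highest without control 5, an alternative added after seeing the data. The wider cartilage list had 3 genes higher, 5 with DESeq2, 7 with the length correction, 8 with the block and length correction, and 2 to 4 with a mouse left out; 35 to 37 were lower then. Over all genes 5608 were higher, and 2771 by library totals. Of genes with no call or a weak one, *Col3a1* passed at -1.06 by library totals but turned to 0.46 with the length correction and 0.61 with block and length correction, *Fabp4* to -0.23 by library totals and to -0.79 and -0.89, both passing, with these corrections, against 0.53 with DESeq2 and 0.56 without control 2, both passing, *Adamts5* to -0.23 by library totals, and *Krt10* to -0.55, passing, by library totals and -0.05 with both. With block and length correction *Vwf* was at 0.02, *Pcsk5* at 0.18 and *Dock2* at 0.11. The cause of these turns was not tested. Same-numbered mice deviated together little (mean r 0.128 over 4 pairs, -0.025 over 16 others), which does not settle whether the numbers pair the mice. With the replicate block alone 9 members were lower (median -3.15). Depth limits *Matn1* and *Matn3*.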
